A study of Mus musculus with 27 samples.

Results

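Cytosolic ribosomal protein genes encode the proteins of the 2 ribosome subunits that translate cytoplasmic mRNA. They were taken here by symbol: Rpl or Rps followed by a number, Rplp, or Rpsa, without -ps pseudogene names and without the Rps6k kinase genes. The rule found 93 genes in all, 92 of the 48440 gene identifiers in the bulk count files and 87 of the 33696 genes in the single cell matrices, with 86 in both. Of the 92, 77 are standard ribosomal proteins (46 of the large and 31 of the small subunit) and 15 are paralogs, copies or genes with a related name. The group was chosen by measured values, the lower knockout than wild-type levels already known from these data. The knockout to wild-type values below are therefore descriptions and carry no test of their own.

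A ribosome holds its proteins in fixed proportions, bound to ribosomal RNA, and their mRNAs are among the most abundant in most cells. Many of these mRNAs start with a run of pyrimidines (a 5′ terminal oligopyrimidine tract), through which their translation follows mTORC1 activity by way of the RNA-binding protein LARP1. Resting lymphocytes, activated lymphocytes and mature granulocytes are known to differ widely in ribosome content.

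The samples came from mouse tumours of MC38, an established line of colon carcinoma cells. Macrophages from these tumours were profiled by bulk RNA-seq in 3 WT and 3 KO samples, and CD45+ immune cells by droplet single cell RNA-seq, with 2 samples named per genotype but 1 matrix for each. WT mice had a floxed Ogt gene and no cre, and KO mice had floxed Ogt and Lyz2-cre, so that both groups carry the floxed allele and only KO carries cre. The product of Ogt is the single enzyme known to attach O-GlcNAc, a sugar, to intracellular proteins. Lyz2-cre is active in macrophages, monocytes and neutrophils, and the cre sits in the Lyz2 gene, so a change due to Ogt loss and one due to the cre allele cannot be told apart. The labels give no animal numbers, ages or sexes and do not say whether animals were pooled, so the spread between the bulk libraries may be technical.

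Expression in bulk is given as CPM, read counts relative to the library's size, scaled by TMM (a factor that sets most genes equal between libraries). Total counts ran from 7032540 to 32406170 per library. The targeted gene Ogt had 61.0, 58.7 and 49.2 CPM in the WT and 32.0, 39.1 and 33.0 CPM in the KO libraries. The 2 groups did not overlap, but more than traces of Ogt RNA were left in KO. Counts cover the whole gene and not the floxed part alone, so they do not show how much intact Ogt RNA was left. Lyz2 fell from 3882 ± 53.8 to 84.0 ± 1.52 CPM (SD, n = 3). All 12 macrophage markers were tested, and their summed level was 12070 to 12342 CPM in WT and 11277 to 11487 CPM in KO. Markers of several other cells moved with genotype. A list of T and NK cell genes summed to 325 to 333 CPM in WT and 505 to 521 CPM in KO. CD8 T markers alone summed to 99.5 to 104 and 212 to 221 CPM. NK markers alone overlapped, at 43.5 to 45.2 and 41.7 to 47.9 CPM, with 3 of 7 called lower and 3 higher. Neutrophil markers summed to 949 to 1013 CPM in WT and 648 to 668 CPM in KO, and migratory dendritic cell markers to 606 to 623 and 236 to 237 CPM. The cDC1 markers summed to 1501 to 1527 CPM in WT and 2049 to 2081 CPM in KO, cDC2 markers to 1543 to 1563 and 1256 to 1289 CPM, and monocyte markers to 1230 to 1260 and 1393 to 1436 CPM. Their part in the ribosomal protein values was not tested. In bulk RNA, fewer cells of a type and less RNA per cell cannot be told apart.

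Start site sequences are shown for 5 genes that the bulk values turn on: the 3 with the lowest KO to WT ratio (Rpl36a, Rpl31 and Rps12), the stalk protein gene Rplp0, and Rps13, the standard gene that was not lower. Each runs from 50 bases before to 20 bases after the RefSeq start (build GRCm38.p6), 5′ to 3′ on the gene's strand. Capitals mark the longest run of 5 to 15 pyrimidines that opens with C within 10 bases of the start. A sequence with no capitals has no such run.
Rpl36a, chrX:134585604-134585673, plus strand: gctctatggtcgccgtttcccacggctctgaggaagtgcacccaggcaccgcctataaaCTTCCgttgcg
Rpl31, chr1:39367801-39367870, plus strand: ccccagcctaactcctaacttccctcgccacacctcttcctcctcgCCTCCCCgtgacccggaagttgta
Rps12, chr10:23787190-23787259, minus strand: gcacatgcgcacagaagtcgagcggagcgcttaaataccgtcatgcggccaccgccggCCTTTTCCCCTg
Rplp0, chr5:115559417-115559486, plus strand: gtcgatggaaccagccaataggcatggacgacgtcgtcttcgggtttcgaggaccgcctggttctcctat
Rps13, chr7:116334171-116334240, minus strand: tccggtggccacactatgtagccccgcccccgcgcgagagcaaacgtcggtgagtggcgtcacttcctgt

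RefSeq promoters (250 bases before to 50 after the start) were matched by symbol for 68 genes of the group. A pyrimidine run as defined above was present in 38 of them (55.9%, against 30.7% of all 27025 promoters), and one of at least 8 bases in 22 (32.4% against 8.02%). The ETS-type motif CCGGAAG, searched on both strands, was present in 25 (36.8% against 9.2%), and TATAAA in 6 (8.82% against 14.2%). The EGR-type motif GCGNGGGCG was present in 8 (11.8% against 5.55%), Rps13 among them. The standard genes did not order by a run found this way. The median log2 fold change was -0.52 over 20 genes with a run of at least 8 bases. It was -0.61 over 11 with a run of 5 to 7, and -0.52 over 26 with none found. A run outside the bases searched counts as none. The sequences of Rplp0 and Rps13 above hold CTCCT and CTTCCT further past the start than was searched. RefSeq starts were not checked against the starts used in these cells. Whether the change depends on a terminal tract was therefore not tested. These matches describe letters in a window and do not show that a factor binds there.

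In bulk macrophage RNA nearly the whole group was lower in KO, though by differing amounts. The genes held 6.67%, 6.71% and 6.67% of all counts in the WT libraries and 4.93%, 4.93% and 4.93% in the KO libraries. The libraries of a genotype were almost equal and the genotypes far apart, a ratio of 0.737. The mitochondrial share of counts differed the other way, at 1.09% ± 0.00905 in WT and 1.29% ± 0.0272 in KO (SD, n = 3), and its part in the group's values was not tested. After TMM scaling, the group's sum was 69008 ± 513 CPM in WT and 47928 ± 45.2 CPM in KO (SD, n = 3).

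Of the 92 genes, 88 passed the filter on low counts. By edgeR's quasi-likelihood test at an adjusted p below 0.05, 79 were called lower in KO, 0 higher, and 9 were not called, where 18.9% of all 12939 genes tested were called lower and 18.8% higher. In 80 of the 88 all 3 KO values were below all 3 WT values, which held for 23.3% of all genes. The median log2 fold change was -0.53 for the group and -0.00 for all genes, and 81 of the 88 were lower by more than 1.2-fold (25.3% of all genes). The 4 genes left out by the filter had at most 16 counts in any library: Rpl3l (the paralog made in striated muscle) and Rpl39l (the testis paralog) had a few counts, and Rpl10l and Rps12l1 were at 0 in all 6 libraries.

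**Figure D1:**
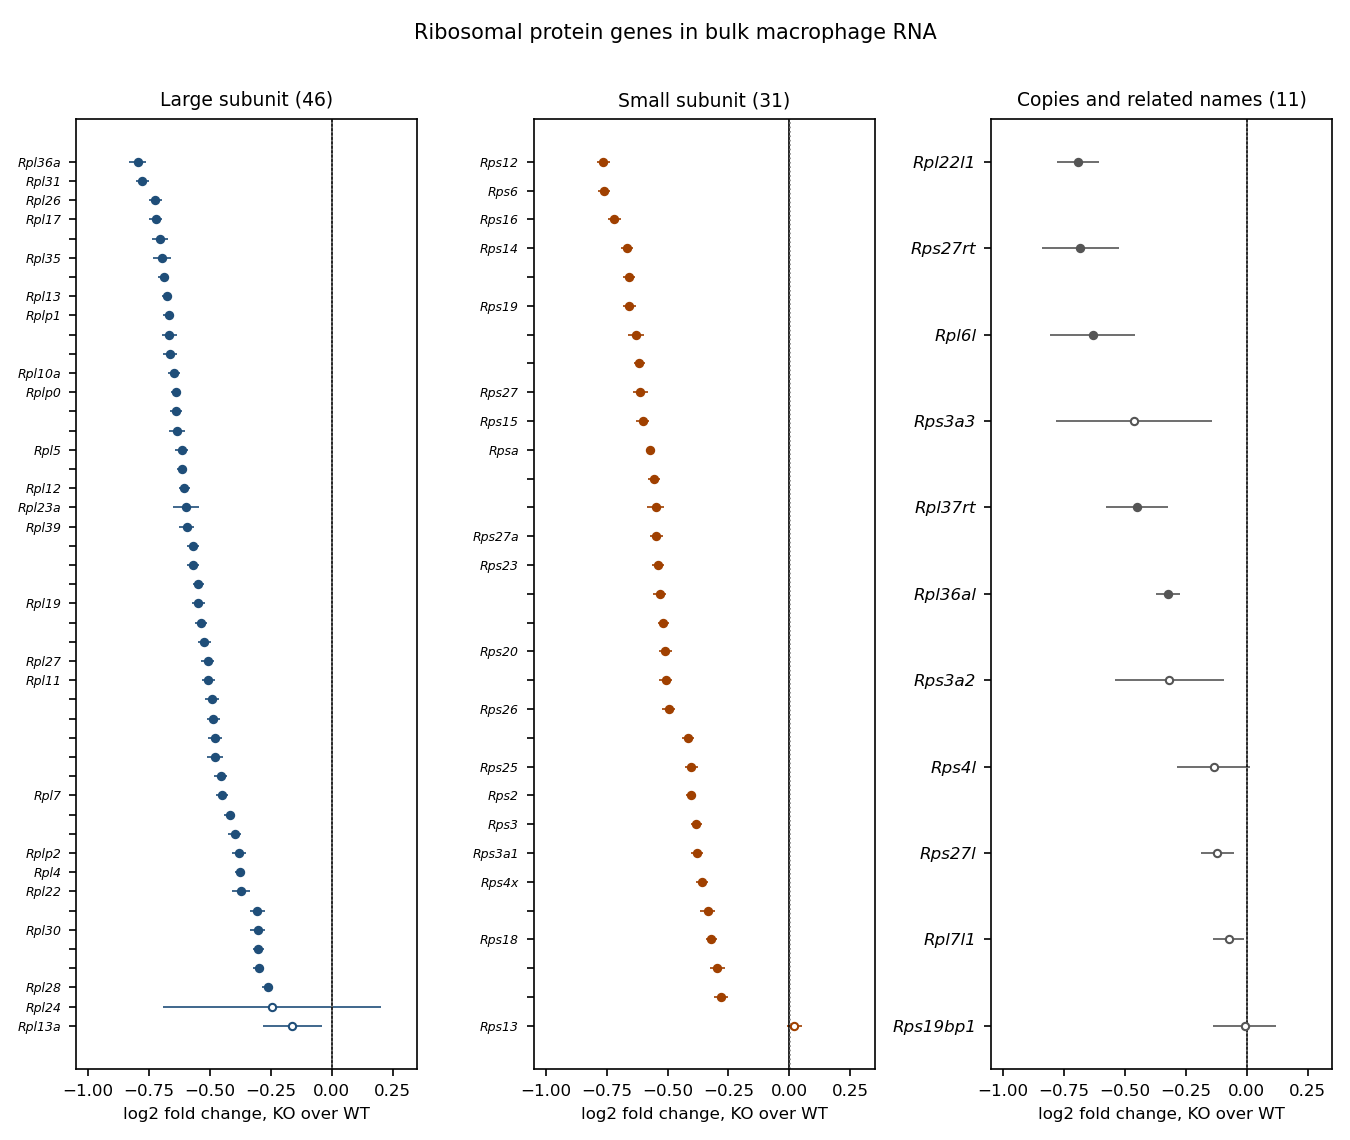
Log2 fold change, KO over WT, of each of the 88 ribosomal protein genes tested in bulk macrophage RNA, in 3 panels by subunit or kind; genes named in the text are labelled. Points are edgeR estimates with standard errors, filled where the gene was called lower; the solid line is 0 and the dotted line, which lies on it, the median of all other genes. Nearly every standard gene lies between -0.80 and -0.26, and Rps13 lies at 0.02.

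The large subunit had 44 of 46 genes called lower, with a median of -0.55. The lowest of the whole group was Rpl36a, which encodes a protein near the exit site for tRNA: it had 391, 374 and 376 CPM in WT and 220, 218 and 219 CPM in KO. Every KO value was well below every WT value, and the log2 fold change was -0.80 (SE 0.035). Rpl31, a protein at the rim of the exit tunnel, had 956, 952 and 1008 CPM in WT and 569, 570 and 562 CPM in KO, a log2 fold change of -0.78. The groups were again far apart, and the 3 KO values lay closer together than the WT values.

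Proteins of the exit tunnel and its rim, through which the nascent chain leaves, included 8 listed genes, all called lower with a median of -0.65. Besides Rpl31 these were Rpl26 (-0.73), Rpl17 (-0.72), Rpl35 (-0.70), Rpl23a (-0.60), Rpl39 (-0.60), Rpl19 (-0.55) and Rpl4 (-0.38). Rpl4, whose protein lines the tunnel wall, was the least changed of them, at 1603, 1650 and 1627 CPM in WT and 1231, 1273 and 1253 CPM in KO.

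The P stalk recruits elongation factors to the ribosome, and its 4 listed genes were called lower with a median of -0.62. Rplp0, the stalk's base, had 2390, 2411 and 2332 CPM in WT and 1513, 1552 and 1515 CPM in KO, a log2 fold change of -0.64. Rplp1 and Rplp2, which dimerise on that base, differed in size of change: Rplp1 went from 1209, 1165 and 1151 CPM to 739, 757 and 720 CPM (-0.67), and Rplp2 from 604, 574 and 611 CPM to 458, 446 and 470 CPM (-0.38). Rpl12, which binds beside the stalk, lay near Rplp0 at -0.61. Genotypes did not overlap for any of the 4.

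Rpl5 and Rpl11 form the 5S particle with 5S ribosomal RNA, which binds the p53 regulator MDM2 when it is not built into ribosomes. Rpl5 had 1013, 1048 and 975 CPM in WT and 656, 655 and 669 CPM in KO, a log2 fold change of -0.62. Rpl11 had 887, 914 and 912 CPM in WT and 642, 610 and 655 CPM in KO, a log2 fold change of -0.51. For both, every KO library was below every WT library.

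The small subunit had 30 of 31 genes called lower, with a median of -0.53. Rps12, a protein of the head, had 915, 916 and 951 CPM in WT and 553, 536 and 549 CPM in KO, a log2 fold change of -0.76 (SE 0.026). Rps6, the substrate of the S6 kinases downstream of mTORC1, had 1100, 1140 and 1127 CPM in WT and 668, 659 and 658 CPM in KO, also -0.76. In both genes the 2 groups were separated by many times the spread within a group.

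All 14 listed genes of the 40S head were called lower, with a median of -0.55 and a range from -0.76 (Rps12) to -0.32 (Rps18). Within the head, Rps16 (-0.72), Rps19 (-0.66) and Rps15 (-0.60) lay towards Rps12, and Rps25 (-0.40) towards Rps18. Rps27a, whose product is made as a fusion with ubiquitin, had 838, 885 and 857 CPM in WT and 592, 578 and 597 CPM in KO (-0.55). The platform genes Rps14 (-0.67), Rps26 (-0.50) and Rps3a1 (-0.38), and the mRNA entry and decoding genes Rps23 (-0.54), Rps2 (-0.40) and Rps3 (-0.38), were called lower as well. Rpsa, which is also known as a laminin receptor, had 1980, 1969 and 1935 CPM in WT and 1336, 1317 and 1309 CPM in KO (-0.57).

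The smallest called change among standard genes was that of Rpl28 (-0.26). It had 1135, 1135 and 1094 CPM in WT and 935, 932 and 935 CPM in KO, still without overlap. Rps13, a small subunit protein that binds the central domain of the ribosomal RNA, was the single standard gene counted above 100 CPM that was not called. It had 403, 389 and 388 CPM in WT and 396, 412 and 391 CPM in KO, a log2 fold change of 0.02 (SE 0.031), and the groups overlapped. With library totals as the only scaling it was at 0.11 and called higher.

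The other standard genes not called were Rpl13a and Rpl24, and both had low counts in bulk. Rpl13a, known for a part in interferon-gated translational control, had 27.4, 24.4 and 26.2 CPM in WT and 23.7, 20.97 and 24.98 CPM in KO (-0.16). Rpl24, which bridges the subunits, had 2.73, 2.74 and 1.17 CPM in WT and 1.501, 1.53 and 2.79 CPM in KO (-0.25). The single cell libraries held 722 CPM of Rpl13a and 1498 CPM of Rpl24 in WT macrophage-like cells. The bulk counting dropped reads that map to several places or to overlapping gene models, and its part in these low counts was not tested.

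**Figure D2:**
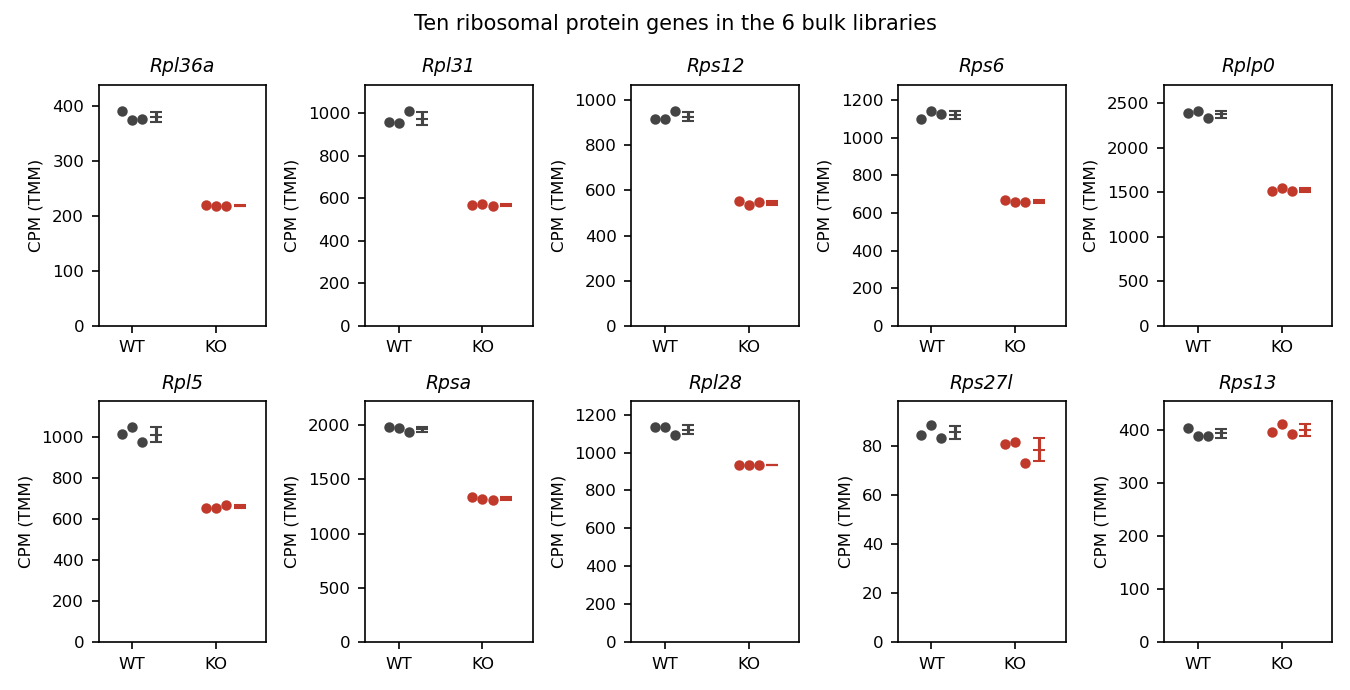
CPM (TMM-scaled) of 10 ribosomal protein genes in the 3 WT and 3 KO bulk libraries; points are libraries and bars the mean ± SD, on axes that start at 0. Rpl36a, Rpl31, Rps12, Rps6, Rplp0, Rpl5, Rpsa and Rpl28 separate the genotypes, while Rps13 overlaps between them and Rps27l nearly so.

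Fewer of the genes with related names were called. Of the 15 paralogs, copies and related names, 11 passed the filter, 5 were called lower, and the median was -0.32. Rpl22l1, the paralog of Rpl22, had 60.04, 66.9 and 59.7 CPM in WT and 37.8, 39.0 and 38.6 CPM in KO (-0.69), where Rpl22 itself was at -0.37. Rpl36al, a copy of Rpl36a, was at -0.32. Without 1 WT library each, Rpl37rt (without replicate 1) and Rpl6l (without replicate 3) were no longer called. Rps27rt (-0.68), Rpl6l (-0.63) and Rpl37rt (-0.45) are near-identical copies counted at low levels, so their reads cannot be told apart with certainty from those of the parent genes.

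Rps27l, a paralog of Rps27 that p53 induces, had 84.8, 88.8 and 83.6 CPM in WT and 80.8, 81.8 and 73.4 CPM in KO. All KO values were below all WT values by a small margin, and the gene was not called (-0.12), whereas Rps27 was called lower (-0.61). Rpl7l1 (-0.07), named for its likeness to Rpl7, Rps4l (-0.14), Rps3a2 (-0.32), Rps3a3 (-0.46) and Rps19bp1 (-0.01), which encodes a binding partner of Rps19 and no ribosomal protein, were not called either. With library totals as the only scaling Rpl7l1 was at 0.012 and Rps19bp1 at 0.078. Pseudogenes with -ps names, which share sequence with the group, held 0.212% ± 0.00684 of counts in WT and 0.129% ± 0.00227 in KO.

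Levels per length (CPM per kilobase of exon, WT mean) spanned a wide range over the group. The highest were Rplp1 at 2374, Rps12 at 1949 and Rps26 at 1752, and the lowest Rpl24 at 2.15, Rps3a3 at 5.74 and Rps3a2 at 10.2. The change depended little on level: over the 77 standard genes, Spearman's rho between log2 fold change and mean CPM was -0.08 (Pearson's r -0.28), and between log2 fold change and exon length 0.29 (r 0.29). These are correlations across genes that share libraries.

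Fold changes of genes outside the group varied with length, and the share called lower with level. Among the 12851 other genes, the median log2 fold change went from -0.25 for the 1166 with up to 1000 bases of exon, of which 233 were called lower (20%), to 0.09 for the 1674 with more than 8000, of which 225 were (13.4%). Of the 523 other genes with more than 300 CPM, 51.4% were called lower, with a median of -0.07. Over the 107 of them with up to 2000 bases of exon, the median was -0.11, and 56.1% were called lower. The part of transcript length and level in the group's values was not tested.

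The other genes of translation did not all move with the group. In a list of 19 tested elongation factor, initiation factor and other genes with a terminal pyrimidine tract or bound to ribosomes, 12 were called lower and 1 higher, with a median of -0.16. The elongation factor gene Eef1a1 fell from 7446 to 5741 CPM (-0.38), Tpt1 from 2528 to 1937 CPM (-0.38), and Rack1, a scaffold on the 40S head, from 1778 to 1372 CPM (-0.37). Fau, which encodes a ubiquitin-like fusion with a small subunit protein, fell from 1380 to 978 CPM (-0.50).

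Host genes of small nucleolar RNAs, whose spliced RNAs also carry such tracts, had 7 of 10 called lower and 0 higher, with a median of -0.51. Gas5 fell from 182 to 111 CPM and Zfas1 from 86.6 to 43.5 CPM. Ribosome biogenesis genes went the other way: 16 of 30 were called higher and 3 lower, with a median of 0.15. Heatr1, a factor for ribosomal RNA transcription and processing, rose from 129 to 183 CPM, and Utp20 from 22.4 to 41.1 CPM. Bysl rose from 13.2 to 28.9 CPM.

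Mitochondrial ribosomal protein genes had 22 of 77 called lower and 11 higher, with a median of -0.09, and nuclear genes of the respiratory chain 32 of 94 lower and 7 higher (-0.08). Genes of mTORC1 and its S6 kinase arm had 4 of 20 called lower and 3 higher (0.01). Rheb, the activator of mTORC1, fell from 146 to 114 CPM, Eif4ebp1, a translation repressor that mTORC1 switches off, fell from 99.0 to 77.3 CPM, and Larp1 rose from 207 to 239 CPM. Over all genes, 18.9% were called lower and 18.8% higher.

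The single cell matrices held 9712 WT and 9767 KO cells after filtering, with medians of 5579 and 5807 UMIs (unique molecular identifiers, which count RNA molecules), and 23 barcodes occurred in both. Cells were clustered without the ribosomal protein genes, so that their level placed no cell in a class. With 1 matrix per genotype no difference below has a replicate check or a test, and 95% exact intervals (binomial for shares, Poisson for sums) cover counting error only. In barcodes with 10 to 100 UMIs, which mostly hold free RNA, the group made up 15.2% of UMIs in WT and 12.6% in KO. Its part in the values of the cell classes was not tested.

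Over all cells, the group held 16.8% of UMIs in WT and 16.2% in KO. In WT the share was 21.7% in NK-like, 20.6% in CD8 T-like, 17.98% in CD4 T-like, 17.6% in cDC1-like, 15.6% in gamma-delta T or ILC-like, 14.9% in B-like and 14.8% in regulatory T-like cells. It was 13.8% in macrophage-like, 11.9% in monocyte-like and 2.90% in neutrophil-like cells. An unnamed T cell cluster led by S1pr1, Lef1 and Tcf7 had 21.4%, and a cluster of 100 cells led by Col3a1, Sparc and Rhox5 had 22.1%. Lymphoid classes thus stood above monocytes and macrophages, and neutrophil-like cells far below all others. The cDC1-like cluster also held Cd209a and Flt3, markers of another dendritic cell type.

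**Figure D3:**
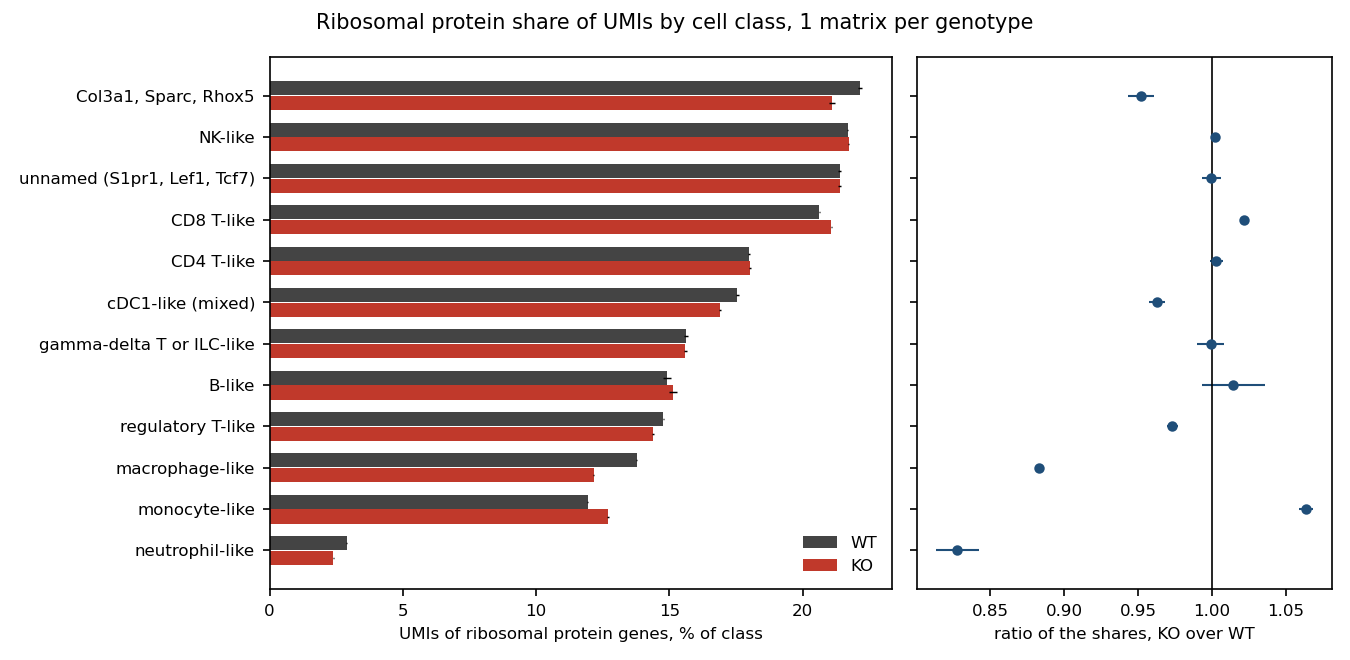
Left, the share of all UMIs that came from ribosomal protein genes in each class, for the WT and the KO matrix, with exact 95% binomial intervals; right, the ratio of the KO to the WT share, with the range those intervals allow. Neutrophil-like (0.828) and macrophage-like (0.883) cells lie left of 1, monocyte-like cells (1.06) right of it, and the other classes between 0.952 and 1.02.

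The share was lower in KO in 2 of the 3 myeloid classes in which Lyz2-cre is known to act. In macrophage-like cells it went from 13.8% to 12.2%, a ratio of 0.883, and in neutrophil-like cells from 2.90% to 2.40%, a ratio of 0.828. In monocyte-like cells it went the other way, from 11.9% to 12.7%, a ratio of 1.06. Lyz2 itself fell from 2989 to 13.1 CPM in macrophage-like and from 7868 to 17.7 CPM in monocyte-like cells, and it went from 307 (interval 280.1 to 335) to 45.6 CPM (37.1 to 55.4) in neutrophil-like cells. Ogt went from 51.7 to 42.8 CPM in macrophage-like, from 58.3 to 39.3 CPM in monocyte-like and from 107 to 63.2 CPM in neutrophil-like cells. Lyz2 RNA was thus nearly gone in macrophage-like and monocyte-like cells and fell by less in neutrophil-like cells (ratio 0.149). Ogt RNA, counted over the whole gene, was left in all 3 classes.

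In lymphoid classes the shares differed little. The ratio was 1.02 in CD8 T-like, 1.002 in NK-like, 1.003 in CD4 T-like, 0.973 in regulatory T-like, 0.999 in gamma-delta T or ILC-like and 1.01 in B-like cells (33 WT and 40 KO cells). It was 0.963 in cDC1-like cells and 0.9996 in the unnamed T cell cluster. Single clusters moved within a class by as much: among the NK-like clusters the ratio ran from 0.957 to 1.05, and among the CD8 T-like clusters from 0.970 to 1.05. The ratios of macrophage-like (0.883) and neutrophil-like cells (0.828) lay below both ranges, and that of monocyte-like cells (1.06) did not. The cluster led by Col3a1, Sparc and Rhox5 lay just below them (0.952). At the WT proportions of clusters the macrophage-like ratio was 0.923, and 1 of its clusters was at 1.07. The cDC1-like ratio moved with the processing, as given below. These differences between classes were not tested.

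Macrophage-like cells were made of 5 clusters whose proportions differed between the matrices. The largest in WT was cluster 2, led by Mmp12, Ccl24 and Mgl2 (46.5% of WT and 32.3% of KO cells), and the largest in KO was cluster 1, led by Arg1 and Ccl7 (32.5% and 44.8%). The share of the ribosomal protein genes in cluster 2 went from 15.8% to 14.2% (ratio 0.901), and in cluster 1, where it was lower in both genotypes, from 8.23% to 8.82% (1.07). It was lower in KO in cluster 5, led by Cadm1 and C1qc (14.8% to 13.5%, 0.911), in cluster 4, led by interferon-induced genes (10.7% to 9.003%, 0.842), and in cluster 17, a shallow cluster with C1q genes (24.9% to 21.7%, 0.872).

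The class difference was smaller at equal cluster proportions. With the KO cluster shares weighted by the WT proportions of UMIs, the KO share was 12.7% and the ratio 0.923 in place of 0.883. With the WT cluster shares weighted by the KO proportions, the WT share was 12.96%. Per cell, over the whole class at its own cluster proportions, KO cells had 0.949 times the ribosomal protein UMIs and 1.09 times the other UMIs of WT cells. The clusters differed in this. Ribosomal protein UMIs per cell were at 0.860 times WT in cluster 2 and 0.782 in cluster 4, with other UMIs at 0.972 and 0.947. In clusters 1, 5 and 17 they were at 1.27, 1.19 and 1.02 times WT, with other UMIs at 1.18, 1.33 and 1.22.

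**Figure D4:**
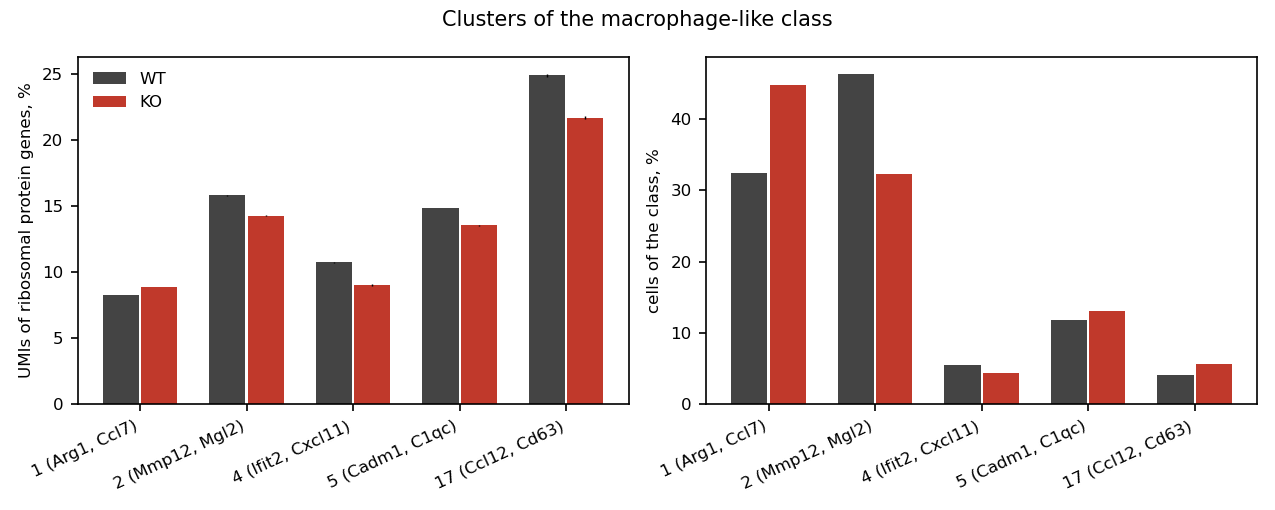
The 5 clusters of the macrophage-like class by their leading genes, in the WT and the KO matrix. Left, the share of UMIs from ribosomal protein genes with exact 95% binomial intervals; right, the share of the class's cells in each cluster. The share is lower in KO in clusters 2, 4, 5 and 17 and higher in cluster 1, which holds more of the KO cells.

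Gene by gene, 84 of the group had at least 100 UMIs in macrophage-like cells. Of these, 18 were lower by more than 1.2-fold and 1 higher, where 11.4% of 11086 genes were lower and 24.2% higher, and 75 of the 84 had a ratio below 1. Divided by the median ratio of all genes in the class, 44 were lower by more than 1.2-fold. That division moves the cut for every gene, and the share over all genes after it is not given. The 11.4% is no background for the 44. The median log2 ratio was -0.19 for the group and 0.08 for all genes. The lowest was Rpl13, an abundant large subunit gene, with 4177 CPM in WT (interval 4150 to 4203) and 3126 CPM in KO (3104 to 3149), a log2 ratio of -0.42. Rps12 (-0.39), Rps16 (-0.38) and Rps4x (-0.36) were also among the 5 lowest.

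Among the 5 highest were Rps19bp1 (0.36), Rps27l (0.22), Rpl3l (0.18) and Rps13 (0.12). Rps27l had 525 CPM in WT (516 to 535) and 614 CPM in KO (604 to 624). Rpl3l rested on 123 and 143 UMIs, and its 2 intervals overlapped. Of the genes named for other reasons, Rps6 went from 885 to 729 CPM (-0.28), Rpsa from 1572 to 1324 CPM (-0.25), Rps27a from 2844 to 2506 CPM (-0.18), and Rpl13a from 722 to 782 CPM (0.12). Fau was at 3605 and 3461 CPM, and Rack1 at 922 and 867 CPM.

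Bulk RNA and macrophage-like cells gave changes of the same sign for most genes but of different size. Of 83 genes measured in both, 75 were below 0 in both, and 82 were lower in bulk than in the single cells. Pearson's r between the 2 log2 values was 0.53 (Spearman's rho 0.37), as a description across genes. Rps12 and Rps16 were among the lowest in both, while Rpl31, at -0.78 in bulk, was at -0.03 in macrophage-like cells. Rpl31 had 465 CPM in WT and 457 CPM in KO there. Bulk values are reads over exons, scaled by TMM, and single cell values are UMIs relative to the class total only. The median log2 value over all genes was -0.00 in bulk and 0.08 in macrophage-like cells. The part of these differences in the sizes was not tested.

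Monocyte-like and neutrophil-like cells differed gene by gene as their shares did. In monocyte-like cells 1 of 84 genes was lower by more than 1.2-fold and 2 were higher (15.8% and 12.7% of 7294 genes). A ratio below 1 was seen for 9, and the median log2 ratio was 0.09, against -0.01 for all genes. Rpsa went from 1411 to 1657 CPM (0.23), and Rpl13, the lowest gene in macrophage-like cells, from 3405 to 3438 CPM (0.01). In neutrophil-like cells 44 of 81 genes were lower and 0 higher (27.9% and 20.1% of 3523 genes), with a median of -0.29, against -0.07 for all genes. Rps27a went from 709 CPM (669 to 752) to 510 CPM (481 to 541) there, and Rpl10a had the lowest log2 ratio (-0.58). The free RNA share differed in the same direction (15.2% and 12.6%), and its part in the low neutrophil values was not tested. Divided by the median ratio of all genes in the class, 25 were lower by more than 1.2-fold. The share over all genes after this division is not given, so the count is not compared with other classes.

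Lymphoid classes had few genes past 1.2-fold. In NK-like cells it was 0 of 83 in either direction (16.7% lower and 8.23% higher over 9823 genes), in CD8 T-like cells 1 lower and 1 higher of 83 (20.8% and 12% of 9832), in CD4 T-like cells 0 lower and 1 higher of 83 (17% and 12.6%), and in regulatory T-like cells 1 lower and 1 higher of 83 (18.4% and 9.11%). The group's genes have more UMIs than most genes in the background, so these shares are not compared further. In B-like cells, with the fewest cells, 7 of 79 were lower and 11 higher (15% and 43.4% of 632).

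Rps13 stood apart in lymphoid and myeloid classes alike. Its log2 ratio was the highest of all group members in monocyte-like (0.37), gamma-delta T or ILC-like (0.37), CD4 T-like (0.36), unnamed T (0.32), regulatory T-like (0.32) and CD8 T-like cells (0.28). In CD8 T-like cells it went from 2369 CPM (2341 to 2397) to 2875 CPM (2847 to 2903), and in NK-like cells from 2282 to 2611 CPM (0.19, rank 2 of 83). In macrophage-like cells it was at 0.12 against a median of -0.19, and in neutrophil-like cells at -0.06 against -0.29. In bulk, likewise, it was the one well-counted standard gene not lower in KO. The exceptions were B-like cells, where it ranked 22 of 79, and the cluster led by Col3a1, Sparc and Rhox5, where it ranked 68 of 82 (-0.17).

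Rps27l varied by class. It was higher in KO in macrophage-like (0.22) and NK-like cells (0.16), and it was the lowest member in CD8 T-like cells, at 447 CPM (435 to 460) in WT and 351 CPM (342 to 361) in KO (-0.35). It was also lowest in gamma-delta T or ILC-like cells (-0.32, from 121 and 119 UMIs), and lower in regulatory T-like cells (-0.18).

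**Figure D5:**
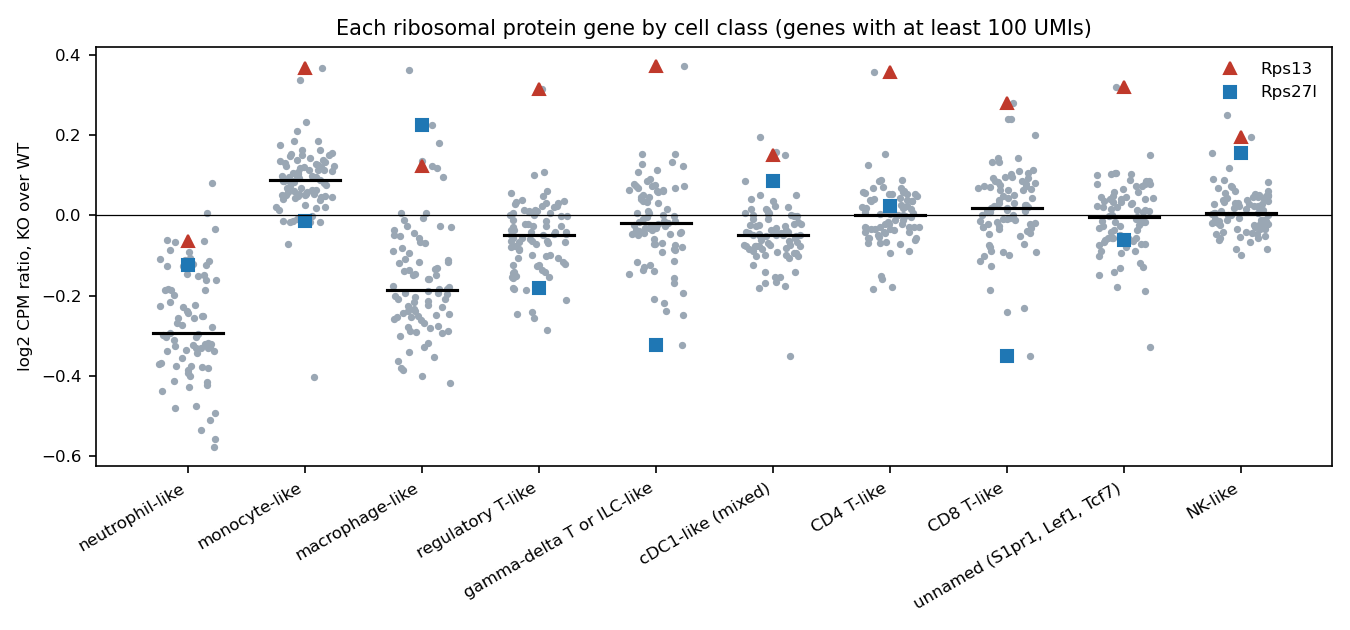
Log2 ratio of CPM, KO over WT, for each ribosomal protein gene with at least 100 UMIs in a class; points are genes, black lines class medians, triangles Rps13 and squares Rps27l. The medians are below 0 in neutrophil-like (-0.29) and macrophage-like (-0.19) cells and above it in monocyte-like cells (0.09), and Rps13 lies above the median in all 10 classes shown.

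Related gene lists in macrophage-like cells differed from bulk in size. The list of other pyrimidine tract and ribosome-bound genes went from 1.71% to 1.65% of UMIs (ratio 0.967), host genes of small nucleolar RNAs from 0.125% to 0.101% (0.807), and ribosome biogenesis genes from 0.162% to 0.174% (1.07). Mitochondrial ribosomal protein genes were at 0.441% and 0.456% (1.03). In monocyte-like cells the first of these lists was at a ratio of 1.06, equal to that of the ribosomal protein genes there.

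Few start sites carried a peak in the deposited EGR2 or open chromatin lists, in the group as over all genes. EGR2, a transcription factor of the early growth response family, was mapped by CUT&Tag in 3 WT and 3 KO macrophage samples, with 1 list each. Within 500 bp of a start site the WT list had a peak at 0 of the 88 genes (0.703% of all genes) and the KO list at 1 (0.41% of all genes), Rps3a1. The merged ATAC list, which marks open chromatin, had a region at 4 (4.55%, against 6.31% of all genes): Rpl27, Rpl30, Rps20 and Rps3. The absence of a region in this list does not show closed chromatin.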

How the data were processed

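The members and gene lists were chosen with earlier results of these data known. Bulk RNA files hold raw counts per gene, made by the authors with featureCounts 2.0.6 on GENCODE M10 models (build mm10), per the file headers; both reads of a pair were counted, strand was ignored and multi-mapped reads were dropped. Cell Ranger 8.0.1 made the deposited matrices of UMI counts, as their headers state. Peaks have a score, used as deposited. Aligner and peak caller: not given in the sources used here.

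Counts were tested with edgeR 4.0.16 (filterByExpr, TMM, quasi-likelihood, 2-sided, Benjamini-Hochberg over 12939 genes) in R 4.3.3; DESeq2 1.42.0 was an alternative. The code was tested on simulated data. Symbols matched 48058 of 48440 identifiers. Cells had at least 500 genes and 1000 UMIs and at most 10% mitochondrial UMIs; Scrublet removed 501 WT and 319 KO doublets. Scanpy 1.11.5 clustered them (2000 variable genes, 30 components, 15 neighbours, Leiden resolution 1). Clusters were named from markers. Ratios used genes with at least 100 UMIs in a class. Named genes were the role lists, the lowest and highest 8 bulk and 5 macrophage-like changes, 7 preset genes and the 3 highest and 3 lowest levels per length. Some genes under the rule are not reported by name here. H3K27ac, H3K4me1 and EGR2 ChIP-seq samples were not analysed here.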

Additional observations from a re-analysis of the deposited data

Results flagged for a closer look

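The KO to WT ratio of the ribosomal protein share was 1.06 in monocyte-like and 0.883 in macrophage-like cells, so that the 2 classes moved in opposite directions. The monocyte-like rise was smaller under the other clusterings and cell filters given below. Single NK-like and CD8 T-like clusters reached a ratio of 1.05. In neutrophil-like cells the ratio of the class was 0.828, again opposite to monocyte-like cells. With 1 matrix per genotype neither difference was tested.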

How the results depend on the processing

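In bulk RNA the count of genes called lower was 78 or 79 of 88 under each of 13 alternatives, and 0 were called higher except for 1, Rps13, with library totals as the only scaling. That scaling moved the median of all genes to 0.09 and gave 3370 higher and 1757 lower genes over all genes; the group's median was then -0.44. Without a filter on low counts the median was -0.52 for the group and 0.13 for all genes. Leaving out each library gave group medians from -0.54 to -0.52. The genotypes share replicate numbers, and deviations of same-numbered libraries correlated at 0.0021, 0.0028 and 0.0097. The spread between libraries may be technical, so these values cannot show whether the samples were paired. The fit with a replicate block gave 79 lower and a median of -0.53. Of 1144 gene values under the alternatives, 1134 kept direction and call. Rps19bp1 was at 0.078 with library totals only, 0.0035 with no filter and 0.0125 with counts divided into read pairs, and from -0.114 to 0.0614 without each library. Rpl7l1 was at 0.0123 with library totals only.

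In single cells the KO to WT ratio of the share stayed on its side of 1 under every alternative run in 4 classes. In macrophage-like cells it was 0.889 at Leiden resolution 0.5, 0.876 at resolution 2, 0.875 with doublets kept, 0.900 with the looser and 0.898 with the stricter cell filter, 0.893 as a median over cells, and 0.923 at the WT proportions of clusters, an alternative chosen after seeing the data. In monocyte-like cells it was 1.040 at both other resolutions, 1.039 with the group among the variable genes, 1.041 with doublets kept, and 1.034 and 1.025 with the looser and stricter filters. In neutrophil-like cells it was 0.813 at resolution 2, 0.792 and 0.800 with the looser and stricter filters, and 0.769 as a median over cells. In CD8 T-like cells it was 1.050 and 1.030 at resolutions 0.5 and 2, 1.016 with the group among the variable genes, 1.030 with doublets kept, 1.017 with the looser filter and 1.042 as a median over cells.

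Classes near 1 changed side. NK-like cells had 0.981 and 0.990 at resolutions 0.5 and 2, 0.992 with the group among the variable genes, 0.993 with doublets kept, 0.988 with the stricter filter and 0.980 as a median over cells. CD4 T-like cells had 0.978 and 0.961 at those resolutions, 0.982 with doublets kept and 0.981 with the stricter filter. Gamma-delta T or ILC-like cells had 1.001 at resolution 0.5 and 1.005 with the group among the variable genes. As medians over cells, regulatory T-like cells had 1.004, B-like cells 0.991 and the cluster led by Col3a1, Sparc and Rhox5 1.065. The cDC1-like ratio ran from 0.911 to 0.985. The cause was not tested.

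Divided by the median ratio of all genes, 44 genes in macrophage-like and 25 in neutrophil-like cells were lower by more than 1.2-fold. The shares over all genes after that division are not given, so these counts have no background and are not compared. With only ATAC regions scored at or above the median, 2 genes had one (2.27%, against 3.99% of all genes). Within 100 bp of the start 0 genes had an EGR2 KO peak, where 0.193% of all genes had one. Having 1 matrix per genotype limits every single cell value.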
